A study of Mus musculus with 18 samples.

Results

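The genes of oxidative phosphorylation were followed in 2 sorted populations of mouse CD8+ T cells. Members were the protein-coding rows of the deposited count table whose GENCODE M21 symbol starts with Nduf, Sdha, Sdhb, Sdhc, Sdhd, Uqcr, Cox4, Cox5, Cox6, Cox7, Cox8, Atp5 or mt-. This gave 111 of 55487 rows, 98 encoded in the nucleus and 13 in mitochondrial DNA. Of the nuclear members, 36 were subunits of complex I, 4 of complex II, 8 of complex III, 19 of complex IV and 17 of complex V, 12 were assembly factors, and Cox7a2l and Atp5s stood in classes of their own. The mitochondrial genome contributed 7 subunits of complex I, 1 of complex III, 3 of complex IV and 2 of complex V.

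All cells came from spleen and lymph nodes of wild-type C57BL/6J mice and were sorted by surface 41BB (CD137), the product of Tnfrsf9, a TNF receptor family member that costimulates T cells. The 41BB+ cells are the study's Tpam subset, and the 41BB- cells are its conventional CD8+ T cells. RNA was taken straight after the sort without activation (0 h), or once cells had spent 24 h or 72 h in IMDM medium with serum and beads that carry antibodies to CD3 and CD28. Each of the 6 groups had 3 libraries, described as biological triplicates. The sources used here do not say whether animals were pooled. Every cultured group was also an activated group, so the effects of activation and of time in culture cannot be told apart.

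Oxidative phosphorylation makes most of the ATP of resting cells. Complexes I and II pass electrons from NADH and succinate through ubiquinone to complex III, cytochrome c and complex IV, which reduces oxygen, and complex V (ATP synthase) uses the proton gradient that complexes I, III and IV build. Complexes I, III, IV and V are mosaics: their nuclear subunits are made in the cytosol and imported, and the remaining subunits are transcribed from both strands of the mitochondrial genome as long precursors that are then cut. Complex II is wholly nuclear. Naive T cells rely largely on oxidative metabolism, and on activation T cells raise glycolysis and also build mitochondria.

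Many nuclear members carry a GC-rich element of the type bound by nuclear respiratory factor 1 (NRF1), a transcription factor known for respiratory genes. The 4 members below have a match upstream of their RefSeq start (GRCm38.p6). They were picked after their values were seen. Among members with an upstream match, they had the smallest adjusted p between the populations straight after the sort (edgeR test described below). Other members, Sdha and Atp5k among them, also hold an upstream match and are not shown. The segments therefore do not stand for typical members, and they do not tie the match to that difference. Each line is 100 bases, 5′ to 3′ on the gene's strand, with the match, GCGCA, any base, then GCGC, in capitals. The windows are chr4:24897925-24898024 (plus strand) for Ndufaf4, chr6:24527662-24527761 (minus strand) for Ndufa5, chr9:50603874-50603973 (minus strand) for Sdhd and chr17:56717657-56717756 (plus strand) for Ndufa11.
Ndufaf4: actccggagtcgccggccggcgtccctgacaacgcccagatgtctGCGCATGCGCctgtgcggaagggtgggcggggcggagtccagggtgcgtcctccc
Ndufa5: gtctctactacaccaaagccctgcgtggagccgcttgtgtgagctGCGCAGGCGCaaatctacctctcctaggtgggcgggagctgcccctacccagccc
Sdhd: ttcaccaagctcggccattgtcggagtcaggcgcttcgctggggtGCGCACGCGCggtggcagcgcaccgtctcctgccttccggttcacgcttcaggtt
Ndufa11: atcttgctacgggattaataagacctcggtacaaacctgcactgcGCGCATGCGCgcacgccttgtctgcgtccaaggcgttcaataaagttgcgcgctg

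RefSeq windows of 300 bases (250 before the start, 50 after) were found for 78 of the 98 nuclear members. A gene with several windows was counted if any of them held a match. The same motif on either strand (read on the other strand as GCGC, any base, then TGCGC) lay in 21 of the 78 (26.9%). It lay in 11.9% of the genes tested that had a window and in 5.19% of all 27025 genes with a window. Among the 52 members with a window that were higher in 41BB+ cells at 0 h, 16 held it (30.8%), against 5 of 21 (23.8%) among the other members tested. The letters CCGGAAG or CTTCCGG, bound by ETS factors, lay in 21 members (26.9%), in 21.2% of genes tested and in 9.93% of all genes with a window. AAGATGGCG or CGCCATCTT, bound by YY1, lay in 8 members (10.3%), in 3.73% of genes tested and in 1.64% of all genes with a window. None of these motifs is part of another, and a match describes letters, not a bound site.

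Total counts per library ran from 3085241 to 4239795, and 16503 to 22816 genes were detected per library. Levels are in CPM (each count as a share of its library's total, multiplied by 1000000), and fold changes and adjusted p-values are from edgeR's quasi-likelihood test with Benjamini-Hochberg adjustment over all 13150 genes tested (threshold 0.05). In the check of the sort, Tnfrsf9 was at 373 to 421 CPM in 41BB+ and 4.96 to 8.45 CPM in 41BB- libraries at 0 h, at 129 to 149 against 172 to 194 CPM at 24 h, and at 11.6 to 33.8 against 44.0 to 61.3 CPM at 72 h. Cd8a was at 323 CPM or more in every library. The sum of 9 CD8 T cell markers was lower in 41BB+ (2658 to 2890 CPM) than in 41BB- libraries (3699 to 4170 CPM) at 0 h, and the sum of 4 NK cell markers was higher (532 to 606 against 55.8 to 62.4 CPM). Nearly all of the NK sum was Eomes, which CD8 T cells also express, and Ncr1, Klrb1c and Klra8 did not pass 3.41 CPM in any library. The sum of 6 B cell markers was 95.2 to 98.4 CPM in 41BB+ and 232 to 256 CPM in 41BB- libraries at 0 h and 531 to 592 against 420 to 500 CPM at 72 h, nearly all of it Ighm. The sum of 4 stromal and endothelial markers, nearly all Pecam1, was 102 to 136 CPM in 41BB+ against 210 to 261 CPM in 41BB- libraries at 0 h and 207 to 281 against 106 to 122 CPM at 72 h. One library stood apart in the sum of 7 myeloid markers, 41BB+ library 2 at 24 h, at 78.7 CPM (Lyz2 at 45.9, Csf1r at 10.9, S100a9 at 10.3 and Itgam at 0 CPM), beside 12.3 CPM in 41BB- library 2 at 24 h and at most 10.3 CPM in the others. Results that moved without it are given with their values below. The part of other cells in the results below was not tested.

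Of the 111 members, 101 passed the filter on low counts, all 13 mt- genes and 88 nuclear ones. The 10 others were Cox4i1, Cox4i2, Cox6a2, Cox6b2, Cox7a1, Cox7b2, Cox8b, Cox8c, Ndufa13 and Ndufa4l2, with at most 6 counts in any library. Cox4i2, Cox6a2, Cox6b2, Cox7a1, Cox8b and Cox8c are tissue-restricted isoforms of complex IV subunits, and Ndufa4l2 is a hypoxia-linked relative of Ndufa4. Cox4i1, the isoform found in most tissues, and Ndufa13 are listed at 0 in every library, as are Cox8b and Cox8c. Why Cox4i1 and Ndufa13 stand at 0 was not tested, and their 0 is not read as absence of the RNA. They add nothing to the sums below. Among isoforms that were counted, the widely expressed Cox6a1, Cox6b1, Cox7a2 and Cox8a all passed the filter.

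Per kilobase of exon, 11 mt- genes ranked above every nuclear member on the mean of all 18 libraries. mt-Co1, the catalytic core of complex IV, led at 1801 CPM per kb, followed by mt-Nd1 at 1149 and mt-Cytb at 1145. The highest nuclear members were the catalytic core of ATP synthase, Atp5a1 (alpha subunit) at 197 and Atp5b (beta subunit) at 138 CPM per kb, next to mt-Nd6 at 176 and mt-Nd3 at 131. Cox8a, at 100 CPM per kb, was the highest nuclear member of complex IV. Levels of 7 mt- genes are uncertain, because unprocessed pseudogenes on chromosome 1 with 99.7% to 100% identity hold counts of their own: 128.6% of the gene's count for mt-Atp6, 102.1% for mt-Co3, 101% for mt-Nd4l, 97.4% for mt-Co2, 87.2% for mt-Nd3, 29% for mt-Nd4 and 17.5% for mt-Co1.

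At 0 h the nuclear genes were higher in 41BB+ cells across every complex. The summed nuclear members stood at 6418, 6602 and 6392 CPM in 41BB+ libraries 1 to 3 and at 3514, 3530 and 3880 CPM in 41BB- libraries 1 to 3. The groups did not overlap, and their means were in a ratio of 1.78. Of the 88 nuclear members tested, 64 were higher and 1 was lower in 41BB+ cells (median log2 fold change 0.90), whereas over all genes 22.2% were higher and 17.3% lower (median 0.01). In bulk samples, a lower share of cells that express a gene and less of its RNA per cell cannot be told apart.

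**Figure D1:**
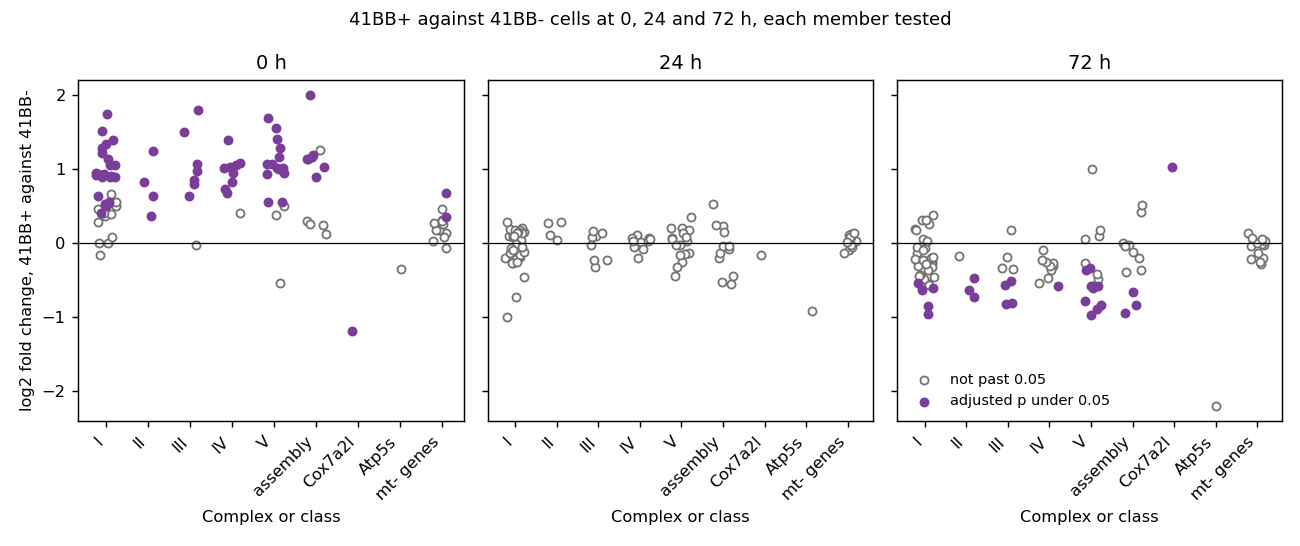
Log2 fold change of 41BB+ against 41BB- cells (vertical axis) for each nuclear member tested, by complex, and for the mt- genes, at 0, 24 and 72 h. Each point is 1 gene, filled where edgeR's adjusted p was under 0.05 and open otherwise. At 0 h 64 nuclear members lie above the line and pass, at 24 h none passes, and at 72 h 25 lie below it and pass, and Cox7a2l passes on the opposite side at both 0 and 72 h.

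Complex V held the most abundant nuclear members, and 14 of its 17 tested were higher at 0 h. Atp5b (chr10:128083273-128090391, plus strand) was at 642, 660 and 616 CPM in 41BB+ and at 221, 242 and 256 CPM in 41BB- libraries. Its log2 fold change was 1.40 ± 0.10 (SE; adjusted p = 1.25e-11), and every 41BB+ library lay above every 41BB- library. Atp5a1 (645, 653 and 642 against 277, 290 and 352 CPM) had a log2 fold change of 1.06 ± 0.10 (adjusted p = 2.1e-09). Atp5g1, Atp5g2 and Atp5g3 encode the same mature subunit c of the rotor ring, and all were higher, by 1.56 ± 0.32, 1.01 ± 0.25 and 1.69 ± 0.15 on the log2 scale (adjusted p = 0.000242, 0.002 and 4.36e-10). Atp5g3 was the most abundant of these, at 99.8 ± 4.07 (SD, n = 3) against 30.6 ± 3.51 CPM. Counts of Atp5g1 and Atp5g2 are uncertain, since pseudogene copies hold 252% and 181.5% of their counts. The same holds for Atp5l (354.5%), Atp5h (292.3%) and Atp5o (93.5%) of complex V. The 17 also include a second Atp5o row, whose exons lie wholly inside another gene.

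All 4 subunits of complex II, succinate dehydrogenase, were higher at 0 h. Sdhd, a membrane anchor (chr9:50596357-50603812, minus strand; promoter segment above), was at 46.8, 55.5 and 55.8 CPM in 41BB+ and 20.1, 17.5 and 28.4 CPM in 41BB- libraries, a log2 fold change of 1.24 ± 0.19 (adjusted p = 5.74e-06). Sdhb, the iron-sulfur subunit, and Sdhc, the other anchor, differed by 0.82 ± 0.14 and 0.63 ± 0.17 (adjusted p = 2.43e-05 and 0.00311). The flavoprotein Sdha, which oxidises succinate, differed least, by 0.36 ± 0.11 (adjusted p = 0.00916), with 201 CPM in each 41BB+ library against 151 to 159 CPM.

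In complex III, 7 of 8 subunits were higher at 0 h. Uqcrq was at 142, 167 and 141 CPM against 35.3, 46.0 and 46.8 CPM (log2 fold change 1.80 ± 0.20, adjusted p = 7.6e-08), and the core protein Uqcrc2 at 140, 139 and 130 against 54.8, 71.6 and 79.9 CPM (0.97 ± 0.14). The exception was Uqcrh, the hinge protein, at -0.03 ± 0.15 (adjusted p = 0.924). In complex IV, 9 of the 10 subunits tested were higher. Cox7b was at 150, 148 and 148 against 52.7, 51.5 and 63.9 CPM (1.39 ± 0.14, adjusted p = 5e-09). Ndufa4, named for complex I but found in complex IV, was at 42.7, 28.6 and 33.7 against 19.8, 19.1 and 14.8 CPM (0.95 ± 0.22, adjusted p = 0.000806). Cox7c, whose pseudogene copies hold 170.6% of its count, did not pass, at 0.41 ± 0.27 (adjusted p = 0.25).

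Of 35 complex I subunits tested, 23 were higher at 0 h and none was lower. The acyl carrier protein Ndufab1 differed most, at 48.0 ± 6.67 against 14.2 ± 1.26 CPM (log2 fold change 1.74 ± 0.20, adjusted p = 4.8e-08). Ndufv1, which binds NADH, and Ndufs1, the largest iron-sulfur subunit, differed by 1.05 ± 0.16 and 0.89 ± 0.14 (adjusted p = 6e-06 and 6.5e-06). Among the assembly factors, which help build the complexes and do not stay in them, 7 of 12 were higher. Ndufaf4, an assembly factor of complex I (chr4:24898083-24905001, plus strand; promoter segment above), had the largest log2 fold change of any member, 1.99 ± 0.18 (adjusted p = 6.44e-10), with 60.4, 64.9 and 75.0 CPM against 15.8, 15.6 and 18.4 CPM.

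The mt- genes differed less than the nuclear members between the populations at 0 h, by median log2 fold change. Their sum was 12760, 12688 and 11863 CPM in 41BB+ and 10335, 9660 and 12123 CPM in 41BB- libraries, so the groups overlapped. Of the 13 genes, 2 (15.4%) were higher and none lower (median log2 fold change 0.25). Over all genes, 22.2% were higher and 17.3% lower (median 0.01). The log2 fold change was positive for 12 of the 13, and for 5 every 41BB+ library lay above every 41BB- library. mt-Nd1 was at 1639, 1597 and 1414 CPM against 918, 869 and 1088 CPM (0.68 ± 0.14, adjusted p = 0.000303). mt-Cytb was at 1984, 1964 and 1808 against 1509, 1327 and 1639 CPM (0.35 ± 0.12, adjusted p = 0.0224). The mt-Cytb call was lost without 41BB+ library 1 or 2 or 41BB- library 1 or 2 (adjusted p up to 0.157), and the number of mt- genes called was 5 with the experiment number as a block within each time. mt-Co1 lay at 3235, 3344 and 3105 against 3177, 3099 and 3792 CPM (-0.07 ± 0.12, adjusted p = 0.7).

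**Figure D2:**
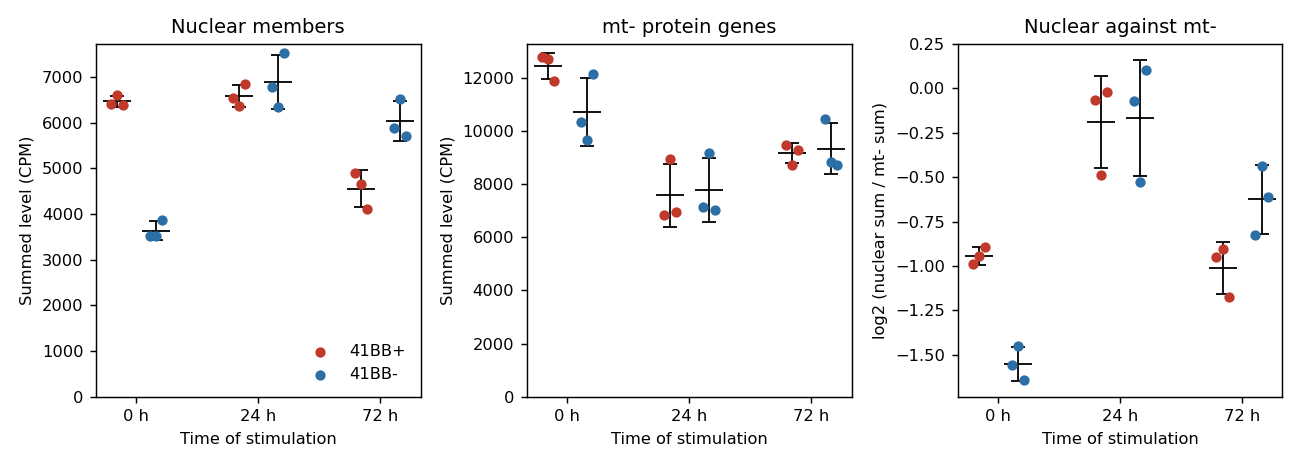
Summed levels of the nuclear members and of the mt- genes (CPM) and the log2 ratio of nuclear to mt- sums in each library, by population and time; points are libraries, long ticks are group means and error bars are SD (n = 3). The nuclear sum of 41BB- cells is lowest at 0 h (3514 to 3880 CPM) and that of 41BB+ cells is lowest at 72 h (4108 to 4897 CPM), while the mt- sums of the populations overlap at every time.

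After 24 h no difference between the populations was called in these genes. No nuclear and no mt- member passed the test between 41BB+ and 41BB- cells in edgeR or in DESeq2, where 1.67% of all genes were higher and 1.07% lower in edgeR. At an unadjusted p under 0.05 there were 4 nuclear members and 0 mt- genes. The nuclear sums were 6546, 6365 and 6853 CPM in 41BB+ and 6794, 6356 and 7521 CPM in 41BB- libraries, and the median log2 fold change of nuclear members was 0.00. Atp5b was at 779, 800 and 840 CPM against 756, 733 and 826 CPM, and Ndufaf4 at 65.5, 61.0 and 73.9 against 64.5, 77.3 and 80.7 CPM.

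The course from 0 to 24 h differed between the populations. In 41BB- cells, 62 nuclear members rose and 3 fell from 0 to 24 h (median log2 fold change 0.83), where 29% of all genes rose and 27.6% fell (median -0.07). In 41BB+ cells, 5 rose and 11 fell (median 0.00), where 18.1% of all genes rose and 16.5% fell (median -0.06). The interaction of population and time, which tests that difference itself, was lower in 41BB+ cells for 48 nuclear members and higher for 1 (median -0.81), against 14% and 9.03% of all genes. The numbers lower were 16 of 35 in complex I, 2 of 4 in complex II, 6 of 8 in complex III, 7 of 10 in complex IV, 12 of 17 in complex V and 5 of 12 assembly factors. Both this interaction and the rise in 41BB- cells reuse libraries of the 0 h comparison. They are not separate evidence of the difference at 0 h.

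In 41BB- cells the members that rose most clearly were Atp5b (1.61 ± 0.10, adjusted p = 2.22e-13), Atp5g3 (1.83 ± 0.15), Atp5a1 (1.25 ± 0.10) and Ndufaf4 (2.08 ± 0.18). Sdhd rose from 20.1, 17.5 and 28.4 to 82.3, 71.4 and 88.3 CPM (1.79 ± 0.19, adjusted p = 4.23e-09). Ndufv3, an accessory subunit of complex I, fell by 0.45 ± 0.17 (adjusted p = 0.0306, lost without any 1 of the 6 libraries). The second row with the symbol Atp5o, whose exons lie wholly inside another gene, also fell.

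In 41BB+ cells, where these genes already stood high, the 5 that rose were Uqcrfs1, Atp5b, Atp5a1, Sdhd and Sdha. Uqcrfs1, the Rieske iron-sulfur protein of complex III, went from 67.7, 73.8 and 82.1 to 133, 105 and 129 CPM (0.77 ± 0.15, adjusted p = 0.000199). Atp5b rose by 0.39 ± 0.10 and Sdhd by 0.59 ± 0.17 (adjusted p = 0.00339 and 0.00993). Among those that fell were 2 small subunits, Atp5e of complex V (55.7, 54.6 and 49.4 to 25.5, 28.1 and 26.8 CPM; -0.94 ± 0.21, adjusted p = 0.00072) and Ndufb4 of complex I (20.0, 25.2 and 33.7 to 6.52, 14.0 and 13.3 CPM; -1.17 ± 0.28, adjusted p = 0.0018). Ndufa11 (promoter segment above) also fell, by 0.77 ± 0.23 (adjusted p = 0.0114), and was lost without 41BB+ library 1 at 0 h or library 2 at 24 h. The count of 11 is not firm: it was 3 to 5 without any 1 of the 6 libraries, and 3 without 41BB+ library 2 at 24 h.

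**Figure D3:**
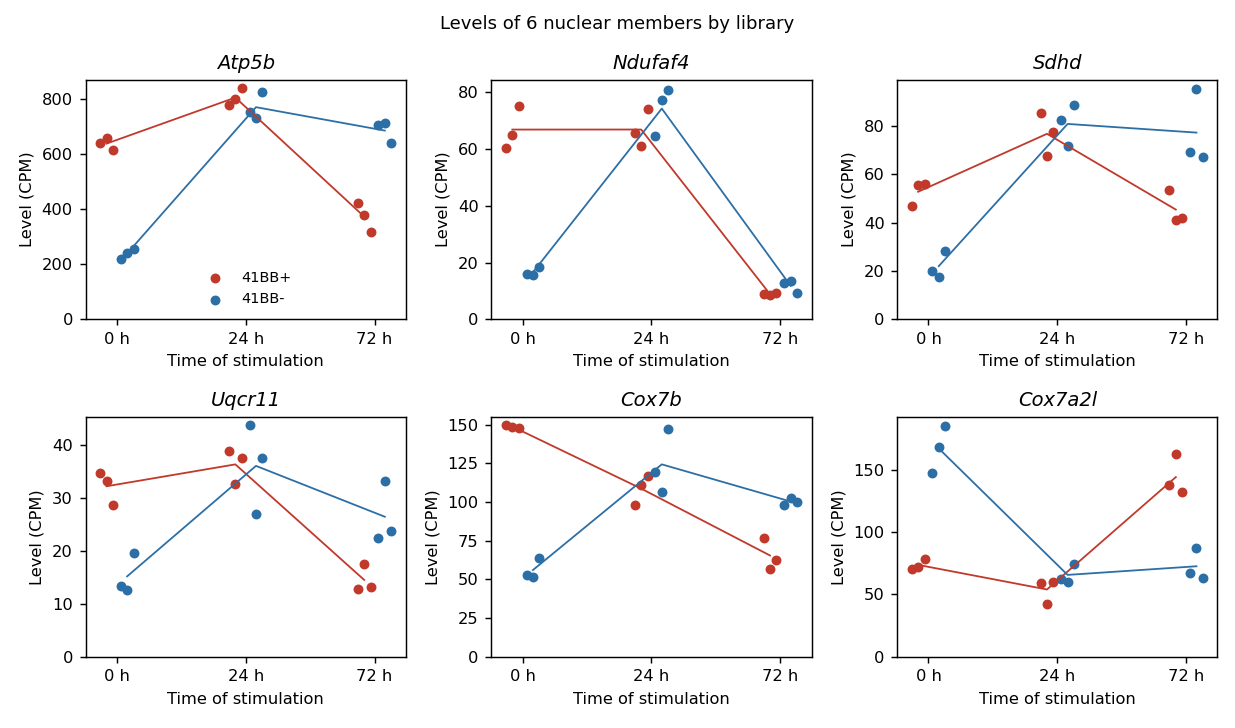
Levels (CPM) of Atp5b, Ndufaf4, Sdhd, Uqcr11, Cox7b and Cox7a2l in each library by time, with 41BB+ and 41BB- cells in separate colours; points are libraries and lines join group means. Atp5b and Ndufaf4 of 41BB- cells start lower and lie near those of 41BB+ cells at 24 h, and Atp5b of 41BB- cells lies above that of 41BB+ cells at 72 h (641 to 713 against 319 to 422 CPM), whereas Cox7a2l runs the opposite way.

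The mt- genes fell in both populations over this interval. In 41BB+ cells 11 of 13 (84.6%) fell from 0 to 24 h (median -0.66), where 16.5% of all genes fell. In 41BB- cells 8 (61.5%) fell (median -0.51), where 27.6% of all genes fell, and none rose in either population. Mitochondrial ribosomal RNA also went down, from a mean of 7.49% to 5.76% of counts in 41BB+ and from 8.66% to 5.76% in 41BB- cells. Against it, mean mt- counts went from 16.6% to 13.1% in 41BB+ and from 12.4% to 13.5% in 41BB- cells, which was not tested. mt-Co1 went from 3235, 3344 and 3105 to 1634, 2287 and 1785 CPM in 41BB+ cells (-0.71 ± 0.12, adjusted p = 3.03e-05) and from 3177, 3099 and 3792 to 1727, 2254 and 1696 CPM in 41BB- cells (-0.90 ± 0.12, adjusted p = 2.9e-07). The libraries did not overlap between times in either population. mt-Nd4 fell in 41BB- cells by 0.67 ± 0.15 (adjusted p = 0.000452) and mt-Co2 in 41BB+ cells by 0.66 ± 0.12 (adjusted p = 5.4e-05).

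mt-Nd1 was the only mt- gene with a called interaction, -0.65 ± 0.19 (adjusted p = 0.0169): it fell in 41BB+ cells (-0.50 ± 0.14, adjusted p = 0.0059) and was at 997, 1292 and 1060 CPM in 41BB- cells at 24 h, against 918, 869 and 1088 CPM at 0 h. The interaction was lost without 41BB- library 2 at 0 h or at 24 h (adjusted p up to 0.057). The library of experiment 2 was the highest of the 3 at 24 h for 10 mt- genes in 41BB+ and 9 in 41BB- cells, and the lowest for mt-Co3 and mt-Nd3. Its mt- sum was 8927 CPM against 6840 and 6946 CPM in 41BB+ cells, and 9175 against 7133 and 7009 CPM in 41BB- cells. Without both of its 24 h libraries, the calls of mt- genes from 0 to 24 h stayed within 1.5 times the counts above.

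**Figure D4:**
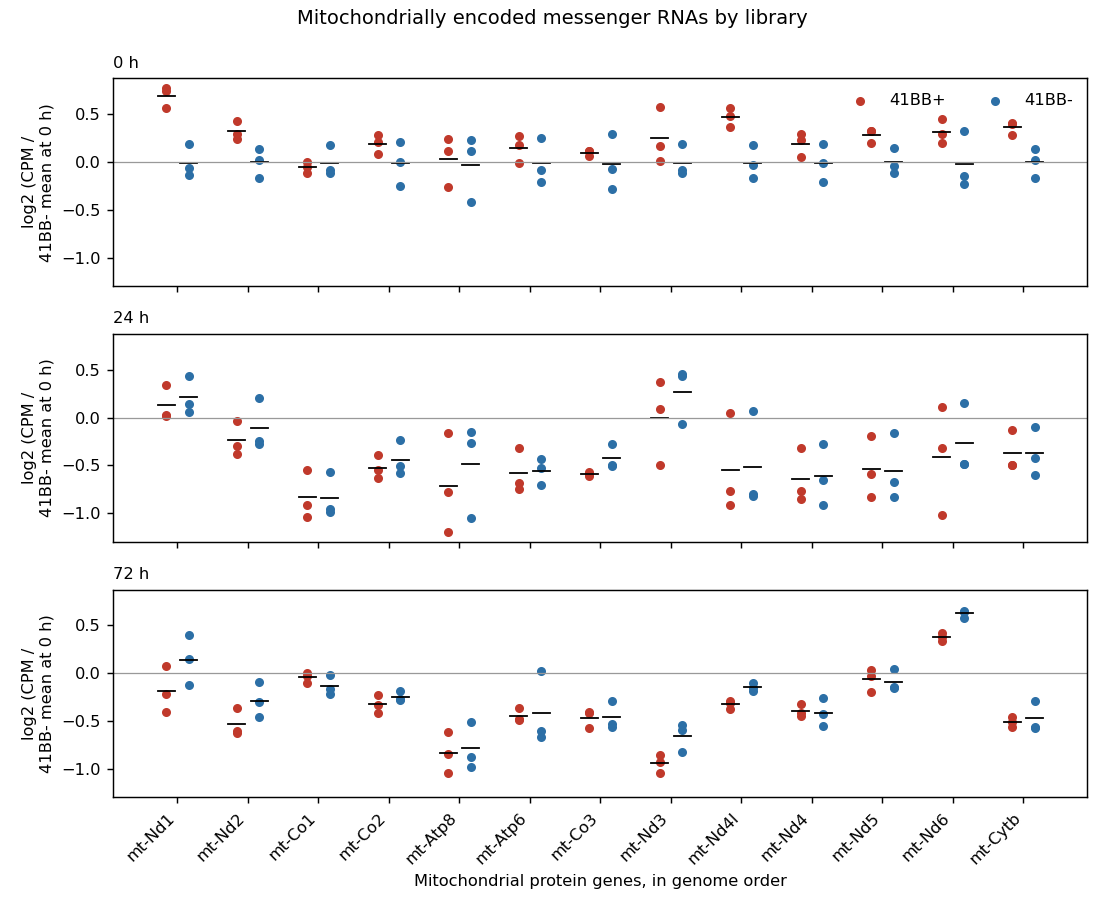
Level of each of the 13 mt- genes in each library, as log2 of its CPM over its mean in 41BB- cells at 0 h, with a panel for each time; points are libraries and short lines are group means of the log2 values. mt-Co1 lies low at 24 h and near its 0 h level at 72 h, mt-Nd6 lies highest at 72 h, and mt-Nd3 lies lowest at 72 h, in both populations.

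The balance of nuclear to mitochondrial transcripts shifted with these changes. The log2 ratio of the summed nuclear to the summed mt- levels was -0.99, -0.94 and -0.89 in 41BB+ and -1.56, -1.45 and -1.64 in 41BB- libraries at 0 h, and the groups did not overlap. At 24 h it was -0.06, -0.49 and -0.02 against -0.07, -0.53 and 0.10. At 72 h it was -0.95, -0.91 and -1.18 in 41BB+ and -0.83, -0.44 and -0.61 in 41BB- libraries, again without overlap but with 41BB+ cells now the lower. Mitochondrial ribosomal RNA, which is no member, took 5.45% to 10.5% of counts and also differed between the groups. It was lower in 41BB+ than in 41BB- libraries at 0 h (7.47% to 7.51% against 7.78% to 10.2%), lay at 5.45% to 5.95% in both populations at 24 h, and was higher in 41BB+ libraries at 72 h (9.65% to 10.5% against 7.97% to 8.51%). At 0 h, mt- counts were 15.8% to 17.1% of mitochondrial ribosomal RNA counts in 41BB+ and 11.9% to 12.9% in 41BB- libraries. They were 11.7% to 15.2% against 11.8% to 15.6% at 24 h, and 8.85% to 9.67% against 10.9% to 12.2% at 72 h. The part of ribosomal RNA in these shares was not tested.

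At 72 h the nuclear sum was lower in 41BB+ than in 41BB- cells. It was 4897, 4654 and 4108 CPM in 41BB+ and 5879, 6525 and 5705 CPM in 41BB- libraries, a ratio of means of 0.754 without overlap. In 41BB+ cells 25 nuclear members were lower and 1 was higher (median log2 fold change -0.33), where 12.2% of all genes were lower and 6.71% higher (median -0.04). The count of 25 fell to 12 without 41BB+ library 2, 14 without 41BB+ library 3 and 9 without 41BB- library 2, and to 12 when only the compared groups were fitted. No mt- gene was called in edgeR or DESeq2 (1 at an unadjusted p under 0.05), and with the experiment number as a block within each time 1 was lower.

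Of the 25 lower members, 24 were among the 64 that had been higher in 41BB+ cells at 0 h, in libraries that the comparisons do not share. Those 64 were already most of the 88 members tested. The same overlap over all genes is not given, so whether 24 is more than it was not tested. The member outside that set was Ndufv3 (-0.61 ± 0.16, adjusted p = 0.0082). Complex V supplied 9 of its 17 and complex II 3 of its 4 subunits, against 1 of 10 in complex IV and 5 of 35 (14.3%) in complex I, shares near the 12.2% of all genes. Atp5b was at 422, 380 and 319 CPM against 705, 713 and 641 CPM (-0.84 ± 0.10, adjusted p = 1.09e-06), and Atp5a1 at 515, 451 and 414 against 691, 695 and 725 CPM (-0.58 ± 0.10, adjusted p = 0.000145). Every 41BB+ library lay below every 41BB- library for both genes, and both calls stood when any 1 library was left out. Atp5g3 (-0.79 ± 0.14) and Uqcrb of complex III (-0.81 ± 0.16) passed in the same way (adjusted p = 0.00022 and 0.00053).

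Complex II was lower in 41BB+ cells for Sdha (165, 136 and 169 against 208, 223 and 238 CPM; -0.47 ± 0.11, adjusted p = 0.00223), Sdhc (-0.63 ± 0.17, adjusted p = 0.00751) and Sdhd (-0.73 ± 0.18, adjusted p = 0.00378). The Sdha call was lost without 41BB+ library 2, that of Sdhc without 41BB+ library 1 or 41BB- library 2, and that of Sdhd without 41BB- library 2. Sdhb was at 96.6, 87.9 and 71.6 against 98.3, 100 and 98.8 CPM and did not pass (-0.18 ± 0.14, adjusted p = 0.402). Ndufa4, at -0.55 ± 0.21, did not pass either (adjusted p = 0.0716).

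From 24 to 72 h, 40 nuclear members fell and 6 rose in 41BB+ cells (median -0.42; 26.3% of all genes fell and 26.2% rose), and 15 fell and 3 rose in 41BB- cells (median -0.01; 18.2% fell and 22.6% rose). The 2 sets of falling members shared 10 genes, 10 of 40 in 41BB+ and 10 of 15 in 41BB- cells. The overlap over all genes is not given for comparison. Of the 12 assembly factors, 6 fell in each population. In 41BB+ and 41BB- cells, 11 and 4 of 35 fell in complex I, 3 and 0 of 4 in complex II, 6 and 3 of 8 in complex III, 4 and 0 of 10 in complex IV and 10 and 2 of 17 in complex V, and the differences between these groups were not tested. Ndufaf4 dropped from 65.5, 61.0 and 73.9 to 9.05, 8.44 and 9.16 CPM in 41BB+ cells (-2.84 ± 0.19, adjusted p = 7.39e-13) and from 64.5, 77.3 and 80.7 to 12.9, 13.4 and 9.20 CPM in 41BB- cells (-2.51 ± 0.19, adjusted p = 2e-11). Ndufa5, a complex I subunit with 2 NRF1-type matches in its window, fell by 1.57 ± 0.18 and by 1.13 ± 0.17 (adjusted p = 2.98e-08 and 5.59e-06).

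The interaction over this later interval was lower in 41BB+ cells for 11 nuclear members and higher for 1 (median -0.33). The share lower was 12.5%, near the 11.4% of all genes, and 6.1% of all genes were higher. These 11 were Atp5b, Atp5a1, Atp5g3, Atp5f1 and Atp5g1 of complex V, Sdha, Sdhc and Sdhd of complex II, Uqcrfs1 and Uqcr11 of complex III, and Ndufv1 of complex I. Atp5b fell by 1.04 ± 0.10 in 41BB+ cells, and its interaction was -1.02 ± 0.14 (adjusted p = 9.99e-06). Sdha fell by 0.51 ± 0.11 in 41BB+ cells and was 0.23 ± 0.11 higher, without passing, in 41BB- cells (interaction -0.75 ± 0.15, adjusted p = 0.00075). The count of 11 was 7 without 41BB+ library 1 at 24 h or library 3 at 72 h, 5 without 41BB+ library 3 at 24 h, 6 without 41BB- library 2 at 24 h and 4 without 41BB- library 2 at 72 h. No assembly factor and no complex IV subunit had a called interaction here.

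A few nuclear members rose at 72 h. Ndufv3 went from 26.9, 27.8 and 30.2 to 60.1, 48.9 and 50.9 CPM in 41BB+ cells (0.98 ± 0.17, adjusted p = 2.16e-05) and from 34.1, 29.6 and 34.9 to 71.6, 89.2 and 89.4 CPM in 41BB- cells (1.49 ± 0.17, adjusted p = 4.02e-08). The other risers of 41BB+ cells were Cox7a2l, Uqcrh, Ndufa6, Ndufaf3 and Ndufb2, and Ndufb11 was another riser of 41BB- cells. Uqcrh rose by 0.49 ± 0.16 and Ndufa6 by 0.57 ± 0.18 (adjusted p = 0.00881 and 0.011).

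The mt- genes did not move as a block after 24 h: 3 rose and 1 fell in 41BB+ cells (median 0.20), and 4 rose and 1 fell in 41BB- cells (median 0.32). The shares rising, 23.1% and 30.8%, lay near those of all genes, 26.2% and 22.6%. The share falling was 7.69% in each population, against 26.3% and 18.2% of all genes. mt-Co1, mt-Nd5 and mt-Nd6 rose in both populations. mt-Co1 rose by 0.84 ± 0.12 in each (adjusted p = 1e-06 and 2.1e-06) and reached 3289, 3134 and 3355 CPM in 41BB+ and 3306, 2875 and 2980 CPM in 41BB- cells. mt-Nd6, the only member encoded on the opposite strand of the mitochondrial genome from the others, rose from 40.3, 88.0 and 65.4 to 109, 106 and 103 CPM (0.78 ± 0.21, adjusted p = 0.0035) and from 58.4, 90.8 and 58.2 to 122, 127 and 128 CPM (1.00 ± 0.21, adjusted p = 0.000493). mt-Nd3 fell in both, from 63.2, 34.7 and 51.9 to 23.6, 27.1 and 25.6 CPM (-0.90 ± 0.20, adjusted p = 0.000439) and from 66.7, 46.6 and 65.9 to 33.5, 32.3 and 27.6 CPM (-0.79 ± 0.20, adjusted p = 0.00191). Without 41BB+ library 2 at 24 h, 6 mt- genes rose in 41BB+ cells; without 41BB- library 3 at 24 h, 2 rose in 41BB- cells. No interaction of an mt- gene was called from 24 to 72 h in edgeR or DESeq2 (0 at an unadjusted p under 0.05).

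Cox7a2l ran opposite to the nuclear members that were called with the majority. The gene (chr17:83501918-83517330, minus strand) is classed here as a supercomplex factor, for supercomplexes of complexes III and IV. Whether its product acts so in these mice was not tested. At 0 h it was at 70.1, 72.1 and 78.6 CPM in 41BB+ and 147, 168 and 185 CPM in 41BB- libraries (-1.19 ± 0.15, adjusted p = 1.63e-07). At 24 h the groups overlapped, at 59.2, 42.7 and 59.8 against 62.5, 59.8 and 74.4 CPM (-0.17 ± 0.15, adjusted p = 0.764). At 72 h it was at 138, 162 and 132 CPM in 41BB+ and 67.2, 86.9 and 63.4 CPM in 41BB- libraries (1.02 ± 0.15, adjusted p = 1.24e-05). It was the only nuclear member called lower at 0 h and the only one called higher at 72 h in 41BB+ cells.

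Over time Cox7a2l fell in 41BB- cells from 0 to 24 h (-1.43 ± 0.15, adjusted p = 3.15e-09) and rose in 41BB+ cells from 24 to 72 h (1.48 ± 0.15, adjusted p = 2.05e-09). Both interactions were positive, 1.02 ± 0.21 and 1.19 ± 0.21 (adjusted p = 0.000575 and 0.000192), and both stood when any 1 library was left out. A pseudogene copy holds 14.1% of its count. Its paralog Cox7a2, a subunit of complex IV, ran with the majority at 0 h, at 34.8, 32.0 and 25.8 against 11.5, 16.5 and 16.3 CPM (1.05 ± 0.24, adjusted p = 0.00073).

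Genes that work beside the members were taken from 6 lists, and their counts read against all genes, of which 22.2% were higher and 17.3% lower at 0 h, 1.67% and 1.07% at 24 h, and 6.71% and 12.2% at 72 h. Adenine nucleotide and phosphate carriers, porins and uncoupling proteins moved most uniformly: at 0 h all 9 of 11 that were tested were higher in 41BB+ cells, at 24 h 2 were higher, and at 72 h 7 were lower. The ADP/ATP carrier Slc25a5 was at 438 ± 23.3 (SD, n = 3) against 124 ± 7.95 CPM at 0 h (1.81 ± 0.12) and at 222 ± 32.9 against 346 ± 33.8 CPM at 72 h (-0.61 ± 0.11). Atpif1, which inhibits ATP hydrolysis by complex V, was higher in 41BB+ cells at 24 h (0.78 ± 0.16, adjusted p = 0.0068) and rose by 2.30 ± 0.16 from 24 to 72 h in 41BB- cells (adjusted p = 1e-11).

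Of 16 genes tested for processing and stability of mitochondrial RNA, 10 were higher at 0 h, 0 at 24 h and 0 at 72 h in 41BB+ cells, and 0, 0 and 4 were lower. From 24 to 72 h, 13 fell in 41BB+ and 11 in 41BB- cells, where 26.3% and 18.2% of all genes fell. Lrpprc, which stabilises mt- messenger RNAs, was at 263 ± 12.2 against 102 ± 4.85 CPM at 0 h (1.35 ± 0.11, adjusted p = 8.3e-11) and at 55.8 ± 7.04 against 119 ± 6.89 CPM at 72 h (-1.05 ± 0.11, adjusted p = 2.8e-07). Of 17 genes for replication and transcription of mitochondrial DNA, 5 were higher and 1 lower at 0 h, none was called at 24 h, and 1 was lower at 72 h, the mitochondrial topoisomerase Top1mt (2.15 ± 0.24 at 0 h, -1.22 ± 0.28 at 72 h). These counts are not far from the shares of all genes.

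Among 14 electron carriers and coenzyme Q synthesis genes, 6 were higher and 2 lower at 0 h, none was called at 24 h, and 6 were lower at 72 h. Cytochrome c (Cycs) was at 67.2 ± 9.65 against 24.3 ± 1.57 CPM at 0 h (1.45 ± 0.19, adjusted p = 4e-07) and fell by 2.30 ± 0.19 in 41BB+ cells from 24 to 72 h. Of 34 assembly factors outside the symbol rule, 11 were higher at 0 h, none was called at 24 h and 5 were lower at 72 h, among them Tmem70, needed for complex V (1.21 ± 0.18 and -0.71 ± 0.18). Of 13 nuclear regulators of respiratory genes, 4 were higher and 3 lower at 0 h, 1 was higher at 24 h (Hcfc1, adjusted p = 0.046), and 3 were lower at 72 h, again not far from the shares of all genes. Myc and Pprc1, which drive growth and respiratory gene programmes, were higher at 0 h (1.53 ± 0.12 and 1.27 ± 0.18) and lower at 72 h (-1.50 ± 0.14 and -1.02 ± 0.21). The 3 lower at 0 h were Rxra (-1.03 ± 0.23), Ppard (-0.74 ± 0.24) and Gabpb2 (-0.43 ± 0.12). Nrf1, the gene of NRF1, did not pass at 0 h (-0.27 ± 0.12, adjusted p = 0.0667).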

How the data were processed

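Total RNA of 18 samples was made into libraries with Takara's SMARTer Stranded Total RNA-Seq Kit (version 2), as the labels' protocols state. FastQC 0.11.9, Trimmomatic 0.38, HISAT2 2.2.1, featureCounts and GRCm38 are named in the submitters' processing notes. How strand and multiply matching reads were handled in counting is not given in the sources used, so reads of overlapping genes or near-identical copies cannot be told apart. The authors deposited whole-number counts of 55487 Ensembl genes, and 55227 IDs matched GENCODE M21. Pseudogene copies of at least 95% identity over 100 bases were found with BLAST 2.17.0.

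CPM are counts over the library total, multiplied by 1000000. Genes were kept by filterByExpr (minimum count 10, minimum total 15), scaled by TMM and tested with edgeR 4.0.16 in R 4.3.3 (robust quasi-likelihood F-test, 1 mean per group over all 18 libraries, common biological coefficient of variation 0.18), with Benjamini-Hochberg adjustment over 13150 genes. The 9 contrasts compared the populations at each time, successive times in each population, and the interactions of both. The fit was tested on simulated data. RLE factors, DESeq2 1.42.0, no filter on low counts, replicate blocks, only the compared groups, scaling without mitochondrial and ribosomal protein genes, and leaving out each library were the alternatives. Added after seeing the data were leaving out both 24 h libraries of experiment 2 and adding pseudogene counts.

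The label number is an experiment number, in the titles and in a deposited sample sheet. It was taken to pair 41BB+ with 41BB- libraries at each time. The main fit did not use these pairs, and among the alternatives only the replicate blocks used the number. Over the 9 such pairs, deviations from group means correlated with a median r of 0.121 (5 above 0.1, lowest -0.0365), against -0.0685 for libraries of other numbers at that time. Replicate counts differed by 4.56 to 8.9 times the sampling variance, so none was a copy. Members, lists and tests were chosen with earlier results of these data known. Genes were named by a rule: in each contrast the nuclear members (4 a direction) and mt- genes (2 a direction) with the smallest adjusted p, a fixed set of isoforms, subunit c genes, complex II and mt-Nd6, up to 4 nuclear members against the majority direction, and up to 3 genes of each outside list. Others named were chosen after their values were seen. Results of some genes are not reported here.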

Additional observations from a re-analysis of the deposited data

Results flagged for a closer look

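Several results differed between the 41BB+ and 41BB- populations by the interaction of population and time (edgeR, adjusted over 13150 genes). From 0 to 24 h the interaction was lower in 41BB+ cells for 48 nuclear members (54.5%, against 14% of all genes) and higher for 1, and lower for 1 mt- gene. The named members were Ndufaf4 (-2.03), Atp5g3 (-1.50), Cox7b (-1.47), Atp5b (-1.22), mt-Nd1 (-0.65) and, in the opposite direction, Cox7a2l (1.02), all on the log2 scale. From 24 to 72 h it was lower for 11 nuclear members (12.5%, near the 11.4% of all genes) and higher for 1, with Atp5b at -1.02, Atp5g3 at -0.99, Atp5a1 at -0.78, Sdha at -0.75 and Cox7a2l at 1.19.

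Signal also appeared outside the members. The chromosome 1 pseudogene copies of mt- genes held 154531 counts over all libraries, beside 612777 counts of the mt- genes themselves. Mitochondrial ribosomal RNA took a median of 7.64% of library counts.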

How the results depend on the processing

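The log2 ratio of summed nuclear to mt- levels between the populations at 24 h lay near 0 and did not keep its sign. It was -0.0243 in the main run and -0.206 to 0.1246 with a library left out. The same ratio in the other comparisons kept its sign under every alternative. Of the values of single named genes under the alternatives, 1953 kept their side of the threshold, 143 lost it and 14 gained it. The counts of nuclear members higher at 0 h in 41BB+ cells (58 to 66), rising from 0 to 24 h in 41BB- cells (59 to 63), falling from 24 to 72 h in 41BB+ cells (33 to 41) and lower in the early interaction (34 to 53) stayed within 1.5 times the main counts in all alternatives. Where a count moved further, the cause was not tested. The mt- genes higher at 0 h numbered 2, but 5 with the replicate block within each time, 5 when only the compared groups were fitted, 1 with DESeq2 and 1 to 3 with a library left out. The block also gave 1 mt- gene lower at 72 h, and it moved no other count by more than 1.5 times. Nuclear members lower at 72 h numbered 12 with only the compared groups and 9 to 21 with a library left out, and those higher 1 to 2. For 24 h against 0 h in 41BB+ cells, the nuclear members that fell numbered 6 without the filter, 7 with scaling without mitochondrial and ribosomal protein genes, 3 without both 24 h libraries of experiment 2 and 3 to 5 with a library left out, and those that rose numbered 8 with only the compared groups. In 41BB- cells those that fell numbered 1 without the filter or without experiment 2 at 24 h, and 1 to 2 with a library left out. For 72 h against 24 h in 41BB+ cells, the mt- genes that rose numbered 6 without experiment 2 at 24 h (3 to 6 with a library left out), and those that fell numbered 2 without the filter (1 to 2). In 41BB- cells the nuclear members that rose numbered 1 without the filter or without experiment 2 at 24 h (1 to 3 with a library left out), and the mt- genes that rose 2 to 6. The early interaction of mt- genes numbered 0 to 1 with a library left out. The late interaction was lower for 5 nuclear members without the filter, 7 with only the compared groups, 5 without experiment 2 at 24 h and 4 to 10 with a library left out, and higher for 1 to 2. The log2 ratio of nuclear to mt- levels changed by -0.82 from 24 to 72 h in 41BB+ cells, or by -0.542 on geometric means, and its difference between 41BB+ and 41BB- cells at 72 h was -0.39, or -0.238 on geometric means. With 3 libraries a group, genes of few counts had wide errors, such as Atp5s (SE 0.73 or more).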
